A study of Mus musculus with 4 samples.

Results

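The piRNA pathway and nuage genes examined here are *Piwil1*, *Piwil2*, *Ddx4*, *Mov10l1*, *Tdrd1*, *Tdrd5*, *Tdrd6*, *Tdrd9*, *Mael* and *Asz1*. They were chosen by gene symbol, and all 10 were among the 11598 genes of the deposited table. Their ribosome-protected fragments (RPFs), the stretches of mRNA that a translating ribosome covers, were measured by Ribo-seq in leptotene and zygotene spermatocytes sorted from testes of 12-day-old mice. The control group (2 libraries, genotype given as wild type) came from littermates. The *Eef1g*-cKO group (2 libraries) lacked exons of *Eef1g*, which encodes the gamma subunit of translation elongation factor eEF1, and *Stra8*-GFPCre, which recombines from spermatogonia onward, made the deletion in male germ cells. Both groups were on a C57BL/6J background and were sorted on Hoechst fluorescence. The sources used here do not say whether the control mice carried the Cre or a floxed allele, or how many mice went into a library. The comparison asked how RPF abundance differed in early meiosis after loss of the elongation factor. RPF abundance depends on the amount of an mRNA as well as on the ribosomes per mRNA. No mRNA levels were used here, so these parts cannot be told apart in the values below. The paper computed translational efficiency, RPF over mRNA abundance, with RNA-seq of the same sorted cells. It reports that known meiotic genes were not overrepresented among the genes whose efficiency changed.

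PIWI proteins bind small RNAs called piRNAs and use them to silence transposons in the germ line. The piRNAs are made and loaded in the nuage, granules beside the nucleus and the mitochondria in which helicases, Tudor domain proteins and membrane anchors gather. Tudor domains bind methylated arginines of PIWI proteins, and loss of many of these factors stops mouse spermatogenesis in meiosis or soon after it.

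The control libraries held 2479504 and 1384282 reads on genes, the *Eef1g*-cKO libraries 223906 and 407979, so the *Eef1g*-cKO values carry the larger counting error. A read on a gene of 1 kb was worth 0.403 and 0.722 FPKM (reads per kilobase of gene and per 1000000 counted reads) in control and 4.47 and 2.45 FPKM in *Eef1g*-cKO. The targeted gene *Eef1g* had 107 and 58 control reads against 0 and 4 in *Eef1g*-cKO (log2 fold change −3.39, limma adjusted p = 0.0731). All 8 leptotene and zygotene markers looked up were in the table and together took 2598 and 1982 reads per 1000000 in control versus 5605 and 5089 in *Eef1g*-cKO. The 10 spermatogonial markers together took 2530 and 3104 reads per 1000000 in the control libraries but 429 and 441 in the *Eef1g*-cKO libraries, and 5 of them were decreased by limma's adjusted p, with none at 0 in both *Eef1g*-cKO libraries. The 6 pachytene markers in the table took 816 and 618 reads per 1000000 in control versus 1894 and 1944 in *Eef1g*-cKO. The paper places the arrest of these mutants at zygotene and detected no pachytene spermatocytes in *Eef1g*-cKO testes. It also reports similar purity of the sorted cells in both genotypes. The 7 Sertoli markers in the table took 220 and 85.2 against 71.5 and 44.1 (*Gata4* at 0 in *Eef1g*-cKO), and the 3 round spermatid markers 6.45 and 28.9 against 0 and 9.80 (*Prm2* at 0 in *Eef1g*-cKO). Leydig, peritubular and endothelial markers took at most 110 in any library, and 0 of 4 macrophage markers were in the table. In bulk libraries such as these, a change in the number of cells of a type and a change in RPFs per cell cannot be told apart.

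In *Eef1g*-cKO leptotene/zygotene spermatocytes the 10 genes did not move as a block. RPF abundance of the Tudor genes *Tdrd1* and *Tdrd9* fell in limma, calls that were lost in 4 and 9 of 16 alternatives. *Ddx4*, *Mael* and *Asz1* had about 2-fold higher values in *Eef1g*-cKO than in control. edgeR called each of them, DESeq2 called *Ddx4* and *Asz1* but not *Mael*, and the main limma fit called none of them. *Piwil2* and *Tdrd5* lay close to their control values, and *Mov10l1* was somewhat higher. *Piwil1* had 80 and 16 reads in control against 1 and 2 in *Eef1g*-cKO and was not called by adjusted p. *Tdrd6* had few reads in either genotype.

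Changes were tested with limma on log2(FPKM + 1) over the 10475 genes whose mean reached 1 FPKM, a scale that understates changes of low genes, and a gene was called when its adjusted p was under 0.05 and its log2 fold change beyond 1 in either direction. Of the 9 genes tested (*Tdrd6* was below the filter), 2 were decreased and 0 increased, while 4.97% of all tested genes were decreased and 2.87% increased. By unadjusted p with the same fold, 3 were decreased (*Piwil1*, *Tdrd1*, *Tdrd9*) and 1 was increased (*Mael*), against 16.3% and 7.32% of all tested genes. edgeR's quasi-likelihood test on the recovered reads called 3 of the 9 increased by adjusted p (*Ddx4*, *Mael*, *Asz1*) and 1 decreased (*Tdrd1*), where 8.75% and 11.2% of its 8056 genes were called. The *Eef1g*-cKO values did not overlap the control values and were higher in 4 genes (*Ddx4*, *Mov10l1*, *Mael*, *Asz1*) and lower in 4 (*Piwil1*, *Piwil2*, *Tdrd1*, *Tdrd9*). Over all tested genes these shares were 24.6% and 37.7%. The median log2 fold change was 0.08 for the 9 genes and −0.23 for all tested genes. For a single gene, 2 libraries against 2 leave an exact permutation test (two-sided) no p smaller than 0.333.

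**Figure D1:**
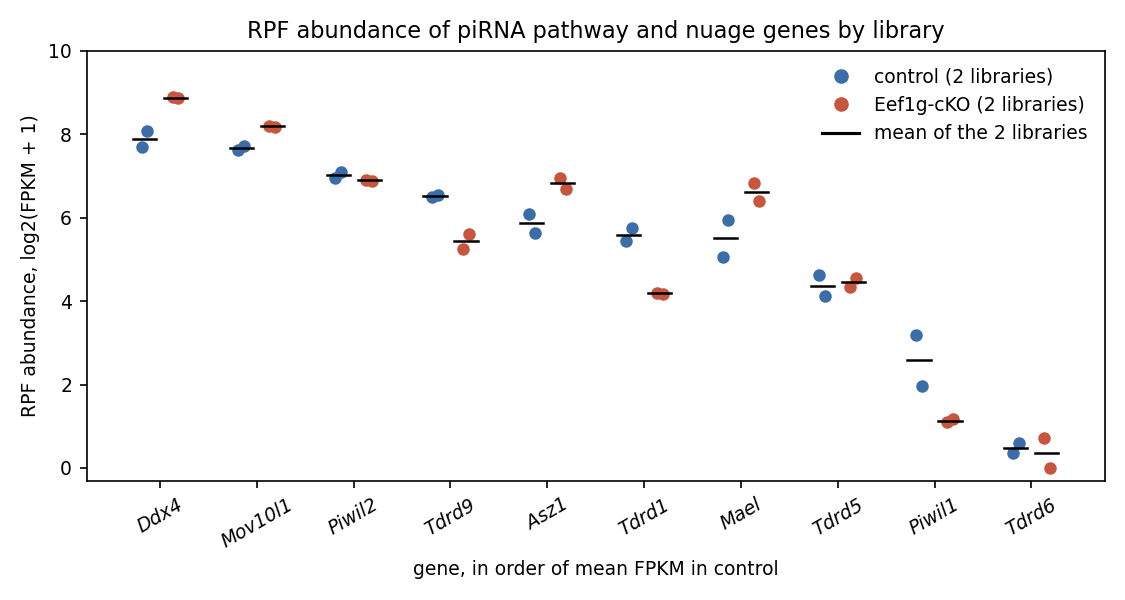
RPF abundance of the 10 genes in each of the 4 libraries, on a log2(FPKM + 1) scale, in order of mean FPKM in control; points are libraries and black bars are means of 2 libraries. *Ddx4* is the most abundant in both genotypes, and *Tdrd1* and *Tdrd9* are the genes with clear gaps downward from control to *Eef1g*-cKO among those above 10 FPKM.

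*Ddx4* and *Mov10l1*, which encode RNA helicases, had the highest mean FPKM of the 10 in both genotypes. *Ddx4*, the mouse Vasa gene and the classical marker of nuage, had 206 and 270 FPKM in control and 472 and 467 FPKM in *Eef1g*-cKO, from 1456, 1063, 301 and 543 reads. Both *Eef1g*-cKO libraries stood clear of the control libraries and almost equal to each other. The log2 fold change was 0.99 (standard error 0.22, 95% interval 0.45 to 1.54), just short of both thresholds (limma adjusted p = 0.0529). DESeq2 called *Ddx4* at 1.04 (adjusted p = 2.82e-04). In edgeR the change was 1.06 (adjusted p = 0.00139, range over all alternatives 1.24e-04 to 0.163). *Mov10l1*, the helicase that feeds piRNA precursors into processing, had 195 and 211 FPKM in control and 292 and 288 FPKM in *Eef1g*-cKO. Its groups did not overlap, but the change was small, 0.52 on the log2 scale (95% interval 0.05 to 0.98, limma adjusted p = 0.137).

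The PIWI genes differed from each other in level and in how firmly a change could be stated. *Piwil2* (MILI), the PIWI protein present from fetal germ cells onward, had 123 and 135 FPKM in control and 119 and 116 FPKM in *Eef1g*-cKO. The libraries of the genotypes lay next to each other without overlapping, and the log2 fold change of −0.13 had a 95% interval of −0.60 to 0.34 (limma adjusted p = 0.673). A change of 2-fold in either direction is outside that interval. *Piwil1* (MIWI), which is known for its rise in pachytene cells, had 80 and 16 reads in control versus 1 and 2 in *Eef1g*-cKO, or 8.18 and 2.93 against 1.13 and 1.24 FPKM. The control libraries differed from each other by more than 2-fold, so the control level itself is uncertain. Over pooled reads *Piwil1* was 5.23 times as abundant in control, with a 95% exact interval of 1.74 to 25.8 that covers counting error only, and its log2 fold change of −1.46 did not pass the adjustment (limma adjusted p = 0.161). It was −0.85 without control replicate 1. In the same libraries the spermatogonial marker total was lower and the pachytene marker total was higher. The round spermatid marker total overlapped between genotypes, and the part of these totals in the *Piwil1* value was not tested.

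Of the 4 Tudor genes, *Tdrd1* and *Tdrd9* were called decreased, *Tdrd5* was not called and *Tdrd6* was not tested. *Tdrd1*, whose protein binds MILI through methylated arginines, had 42.4 and 52.6 FPKM in control and 17.2 and 17.1 FPKM in *Eef1g*-cKO, from 572, 396, 21 and 38 reads. Each control value was more than 2 times either *Eef1g*-cKO value, and the log2 fold change was −1.41 (standard error 0.25, limma adjusted p = 0.0379, range over all alternatives 1.35e-05 to 0.232). *Tdrd9*, a Tudor protein with a helicase domain, had 89.7 and 92.4 FPKM in control and 37.1 and 47.9 FPKM in *Eef1g*-cKO. The groups were again well apart, and the fitted log2 change was −1.09 (limma standard error 0.23, adjusted p = 0.0478). DESeq2 called *Tdrd9* decreased at −1.01 (adjusted p = 0.00877), as did edgeR when run without its filter or with a replicate block. In edgeR the change was −0.999 with an adjusted p of 0.00403 (range over all alternatives 5.80e-04 to 0.299), just short of the fold threshold. Both limma calls were lost when either control library was left out (*Tdrd1* −1.56 without control replicate 1 and −1.26 without control replicate 2, *Tdrd9* −1.11 and −1.07), settings in which no gene of the table was called. Without *Eef1g*-cKO replicate 1 *Tdrd9* was at −0.91. The spermatogonial marker total was lower in the same libraries, going from 2530 and 3104 to 429 and 441 reads per 1000000, and its part in these decreases was not tested.

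*Tdrd5*, needed for transposon silencing and piRNA precursor processing, had 23.6 and 16.4 FPKM in control and 19.3 and 22.6 FPKM in *Eef1g*-cKO. The libraries of the genotypes overlapped, and the 95% interval of its log2 fold change of 0.08 ran from −0.67 to 0.83 (limma adjusted p = 0.877). *Tdrd6*, a large component of the later chromatoid body of spermatids, had 5 and 5 reads in control versus 1 and 0 in *Eef1g*-cKO. Its pooled rate in control was 1.64 times that in *Eef1g*-cKO with a 95% exact interval of 0.233 to 71.0, so no difference was detectable at this depth.

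*Mael* and *Asz1* encode further nuage proteins, and limma called neither. DESeq2 called *Asz1* (log2 fold change 1.01, adjusted p = 0.0432) but not *Mael* (1.14, adjusted p = 0.0555). *Mael*, encoding Maelstrom, had 32.3 and 60.7 FPKM in control and 113 and 84.0 FPKM in *Eef1g*-cKO. Its control libraries were the most unequal among the genes above 10 FPKM, and the log2 fold change of 1.12 (standard error 0.35, 95% interval 0.25 to 1.98) did not pass limma's adjustment (adjusted p = 0.0996). It was 0.67 without control replicate 1 and 1.56 without control replicate 2, and 1.32 with a call (limma adjusted p = 0.0489) without *Eef1g*-cKO replicate 2. edgeR called it at 1.16 (adjusted p = 0.0107, range over all alternatives 7.24e-04 to 0.351). *Asz1* (GASZ), which anchors nuage on the outer mitochondrial membrane, had 66.8 and 49.0 FPKM in control and 123 and 103 FPKM in *Eef1g*-cKO. The *Eef1g*-cKO libraries lay above the control libraries by 0.96 on the log2 scale (limma standard error 0.25, adjusted p = 0.0653), and edgeR called it at 1.01 (adjusted p = 0.00841, range over all alternatives 8.85e-04 to 0.312). The leptotene and zygotene marker total was also higher in these libraries (6 of 8 markers without overlap between genotypes, 4 of them increased by limma's adjusted p), and its part in these values was not tested.

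**Figure D2:**
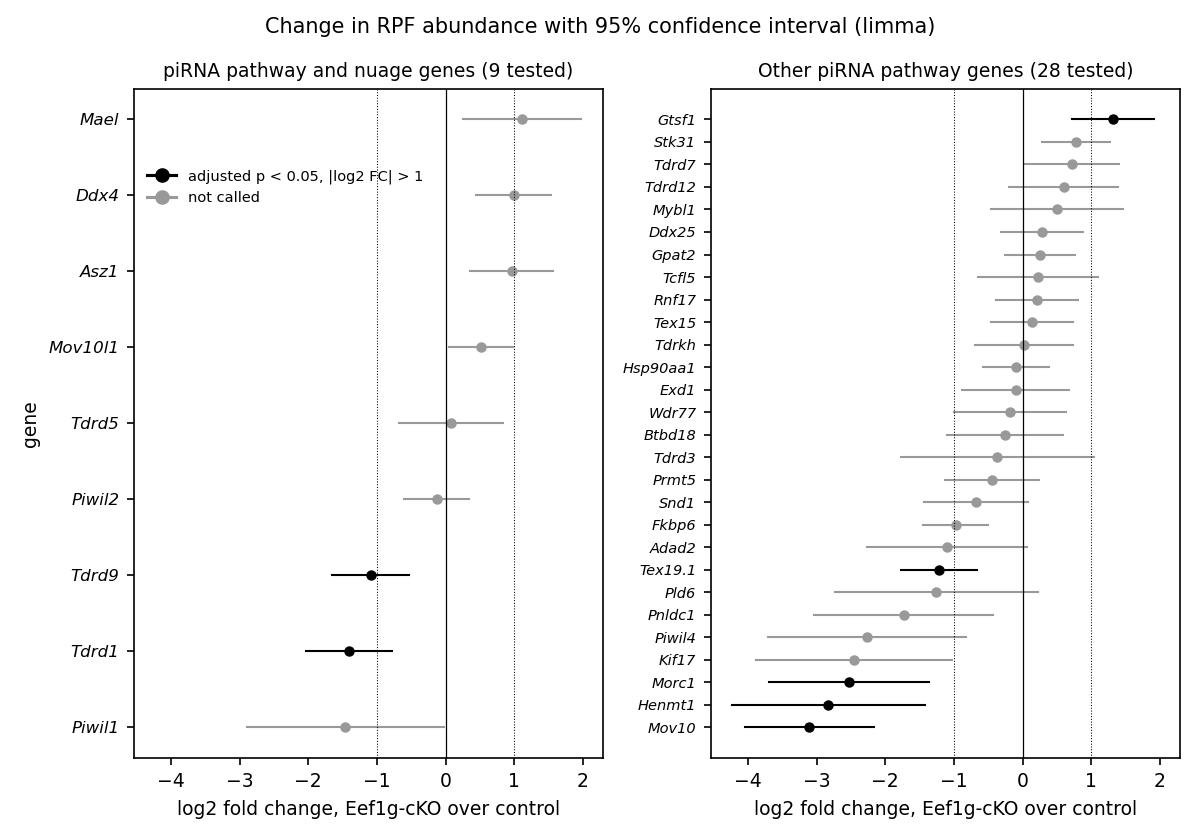
Log2 fold change of RPF abundance, *Eef1g*-cKO over control, with its 95% confidence interval from limma (n = 2 libraries each), for the 9 tested genes on the left and 28 other piRNA pathway genes on the right. Black marks called genes; *Tdrd1* at −1.41 and *Tdrd9* at −1.09 are called on the left, and *Gtsf1* at 1.31 is the only called increase on the right.

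The order of RPF levels also differed between genotypes. In control the sequence by mean FPKM was *Ddx4*, *Mov10l1*, *Piwil2*, *Tdrd9*, *Asz1*, *Tdrd1*, *Mael*, *Tdrd5*, *Piwil1* and *Tdrd6*. *Ddx4* (238 ± 44.8, SD, n = 2) was not separated from *Mov10l1* (203 ± 11), nor *Asz1* (57.9 ± 12.6) from *Tdrd1* (47.5 ± 7.19) or *Tdrd1* from *Mael* (46.5 ± 20.1). In *Eef1g*-cKO the values of *Ddx4* (470 ± 3.32) and *Mov10l1* (290 ± 2.93) did not overlap. *Piwil2* (118 ± 2.01) was not separated from *Asz1* (113 ± 14.4), nor *Asz1* from *Mael* (98.3 ± 20.2), and *Tdrd1* (17.2 ± 0.0841) lay below *Tdrd5* (20.9 ± 2.33). In *Eef1g*-cKO *Tdrd1* rested on 21 and 38 reads and *Tdrd5* on 15 and 32. The order of *Tdrd1* and *Tdrd5* there is therefore uncertain, and the SD of *Tdrd1* does not show its counting error. FPKM also divides by the whole gene length, not by the coding sequence. These lengths were 5443 and 3516 bases in *Tdrd1*, 3472 and 3120 in *Tdrd5*, 4913 and 2913 in *Piwil2*, and 1740 and 1425 in *Asz1*. The order between genes therefore depends in part on length outside the coding sequence, and an order by coding length was not computed.

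Ratios between 2 genes of the same library do not depend on the scaling between libraries. The pairs were chosen with the values known and are given as a description. *Ddx4* had 4.86 and 5.13 times the FPKM of *Tdrd1* in control and 27.4 and 27.3 times in *Eef1g*-cKO, 5.47-fold more. *Mael* went from 0.361 and 0.658 times *Tdrd9* to 3.03 and 1.75 times, and *Asz1* from 0.745 and 0.530 times to 3.32 and 2.15 times, so that both passed from below to above *Tdrd9*. *Ddx4* against *Piwil2* went from 1.67 and 2.00 to 3.96 and 4.02. *Tdrd9* was 2.12 and 1.76 times *Tdrd1* in the control libraries and 2.16 and 2.80 times in the *Eef1g*-cKO libraries, which lay just above, and *Asz1* against *Mael* overlapped between genotypes.

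**Figure D3:**
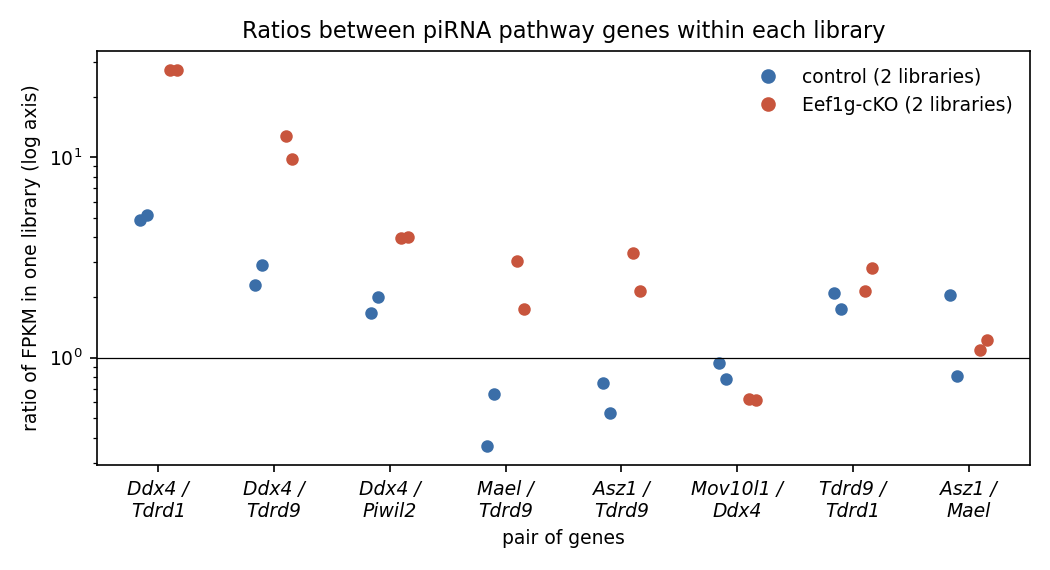
Ratio of the FPKM of 2 genes within each library, on a log axis; blue points are the 2 control and red points the 2 *Eef1g*-cKO libraries, and the line marks equal FPKM. *Ddx4* over *Tdrd1* moves from about 5 to about 27, while *Asz1* over *Mael* overlaps between genotypes.

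All 10 genes together took 2927 and 3265 reads per 1000000 in control versus 3850 and 3785 in *Eef1g*-cKO, 1.23-fold more. *Ddx4* alone gave 20.1% and 23.5% of these reads in control versus 34.9% and 35.2% in *Eef1g*-cKO, and *Tdrd9* 14.7% and 13.6% against 4.64% and 6.09%. Without *Ddx4* the sum was 2340 and 2497 in control versus 2506 and 2454 in *Eef1g*-cKO, overlapping values.

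The other genes of the pathway were followed as a list of 34, of which 29 were in the table and 28 tested. limma called 1 increased and 4 decreased after adjustment (2.87% and 4.97% of all tested genes), or 1 and 7 before it (7.32% and 16.3% of all tested genes). Their median log2 fold change was −0.22, close to the −0.23 of all tested genes. *Gtsf1*, a zinc finger partner that speeds cleavage by PIWI proteins, rose by 1.31 on the log2 scale (limma adjusted p = 0.0384), with 91.9 ± 13.0 FPKM in control and 231 ± 48.9 FPKM in *Eef1g*-cKO (SD, n = 2). *Mov10*, the widely expressed relative of *Mov10l1*, fell from 278 and 164 reads to 3 and 3. Its log2 fold change was −3.11 (limma adjusted p = 0.0260), and over pooled reads control was 12.0 times higher (95% exact interval 5.49 to 33.0, counting error only). *Morc1*, needed for transposon silencing in male germ cells, had 147 and 80 reads in control versus 1 and 5 in *Eef1g*-cKO, a log2 fold change of −2.52 (limma adjusted p = 0.0395). *Tex19.1*, which restrains retrotransposons in germ cells, fell from 180 ± 33.8 to 76.5 ± 4.47 FPKM (log2 fold change −1.22, limma adjusted p = 0.0383). *Henmt1*, the methyltransferase that protects piRNA ends, had 43 and 32 reads in control versus 0 and 1 in *Eef1g*-cKO, or 12.3 times more in control by pooled reads (95% exact interval 2.14 to 491), and was called decreased (limma adjusted p = 0.0451).

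The nuclear PIWI gene *Piwil4* (MIWI2) had 28 and 27 reads in control versus 0 and 1 in *Eef1g*-cKO (log2 fold change −2.26, limma adjusted p = 0.0675). The mitochondrial nuclease gene *Pld6* was at −1.26 and the piRNA trimmer gene *Pnldc1* at −1.73, and neither passed the adjustment (limma adjusted p = 0.217 and 0.0941). *Tdrkh*, which holds PIWI proteins at mitochondria during trimming, had a log2 fold change of 0.024 (adjusted p = 0.962). The Tudor genes *Tdrd7* (0.72), *Tdrd12* (0.60) and *Rnf17* (0.22) and the transposon silencing gene *Tex15* (0.14) were not called. *Mybl1*, the transcription factor of pachytene piRNA loci, rested on 127, 42, 14 and 22 reads and had a log2 fold change of 0.50 (limma adjusted p = 0.421).

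The start codons of the 10 genes are shown because translation of the coding sequence begins there. Each line gives 12 bases before and 15 after the ATG, which is in capitals, from the longest coding sequence in GENCODE release M21 (GRCm38).
*Ddx4* (chr13:112651401-112651403, minus strand): cctgaagctatcATGggagatgaagattgg
*Mov10l1* (chr15:88982965-88982967, plus strand): cgcgtggatgccATGctgcgccttgctgcc
*Piwil2* (chr14:70426696-70426698, minus strand): tacagcctctcaATGgatcctgtcaggccg
*Piwil1* (chr5:128739047-128739049, plus strand): gctgactggaaaATGactggccgagcccga
*Tdrd1* (chr19:56831070-56831072, plus strand): attacacctaatATGatgccacggaataat
*Tdrd5* (chr1:156302596-156302598, minus strand): gcagccagcacgATGtctgaacaagagcgt
*Tdrd6* (chr17:43630153-43630155, minus strand): ttggccgcagccATGagttcgactccgggg
*Tdrd9* (chr12:111971642-111971644, plus strand): taggcaccgaggATGttgcgcaagctcacg
*Mael* (chr1:166238664-166238666, minus strand): cccgacgacgccATGcccaaccgcagggcc
*Asz1* (chr6:18109034-18109036, minus strand): cagcttggagccATGgcagcgggcacactg

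A purine stood 3 bases before the ATG in 9 of the 10, all but *Piwil2*, against 86.4% of 10354 genes of the table. A G directly after the ATG stood in 3 of the 10 (*Ddx4*, *Piwil2*, *Asz1*), against 53.1% of those genes. *Tdrd1* and *Tdrd9* lack that G, as do *Mael* and *Mov10l1*. Coding sequences ran from 1302 bases in *Mael* to 6405 in *Tdrd6*. *Ddx4*, *Asz1* and *Mael* had the lowest shares of G or C at the last codon position, 32.3%, 41.3% and 47.0%, and *Piwil1* the highest, 69.1%, with *Tdrd1* at 54.7% and *Tdrd9* at 59.4%. Across the 9 tested genes Spearman's rho between this share and the log2 fold change was −0.82, and across 9770 tested genes of the table it was −0.30. These points share the same 4 libraries and are not replicates. Removing each library's trend with coding GC content left *Tdrd1* called at −1.35, took *Tdrd9* to −0.90 and out of its call, and brought *Ddx4* to 0.78 and *Asz1* to 0.72.

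Promoter sequences (250 bases before to 50 after the first listed RefSeq start, GRCm38.p6) were held for 8 of the 10 genes, and 4 motifs were searched on both strands. The E-box CACGTG, which reads the same on both strands, was in the promoters of 6 of the 8 (*Ddx4*, *Mov10l1*, *Piwil1*, *Tdrd1*, *Tdrd9*, *Mael*) and in 10.9% of 8731 genes of the table with a promoter. *Tdrd5* and *Asz1* had no copy in this window. Stretches from 5 of these promoters are printed with 15 bases on either side of the E-box, which is in capitals, to show the shared letters in genes that differed in direction, and they are not every copy found.
*Ddx4* (chr13:112652319-112652354, minus strand): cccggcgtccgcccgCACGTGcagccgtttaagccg
*Tdrd1* (chr19:56826183-56826218, plus strand): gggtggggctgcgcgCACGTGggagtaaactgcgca
*Tdrd9* (chr12:111971379-111971414, plus strand): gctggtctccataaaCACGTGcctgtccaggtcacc
*Mael* (chr1:166238947-166238982, minus strand): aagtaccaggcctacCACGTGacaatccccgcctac
*Piwil1* (chr5:128736052-128736087, plus strand): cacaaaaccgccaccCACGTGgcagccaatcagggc
*Piwil1*, nearer copy (chr5:128736077-128736112, plus strand): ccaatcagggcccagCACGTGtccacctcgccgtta

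The E-box was in *Ddx4* and *Mael*, higher in *Eef1g*-cKO, and in *Tdrd1* and *Tdrd9*, lower there. *Asz1*, also higher, had none, and a link of the motif to the changes was not tested. The MYB core CAGTT was in the promoters of *Mael*, *Piwil1* and *Tdrd1* (44.8% of all 32851 promoters), the GC box GGGCGG in those of *Ddx4*, *Mov10l1*, *Piwil1*, *Mael* and *Asz1* (35.7%), and the CRE TGACGTCA in none of the 8 (1.79%). These shares are over all promoters, not over the 8731 genes used for the E-box, which was in 7.15% of all 32851 promoters. Ribo-seq does not measure promoters, and a match describes letters only.

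**Figure D4:**
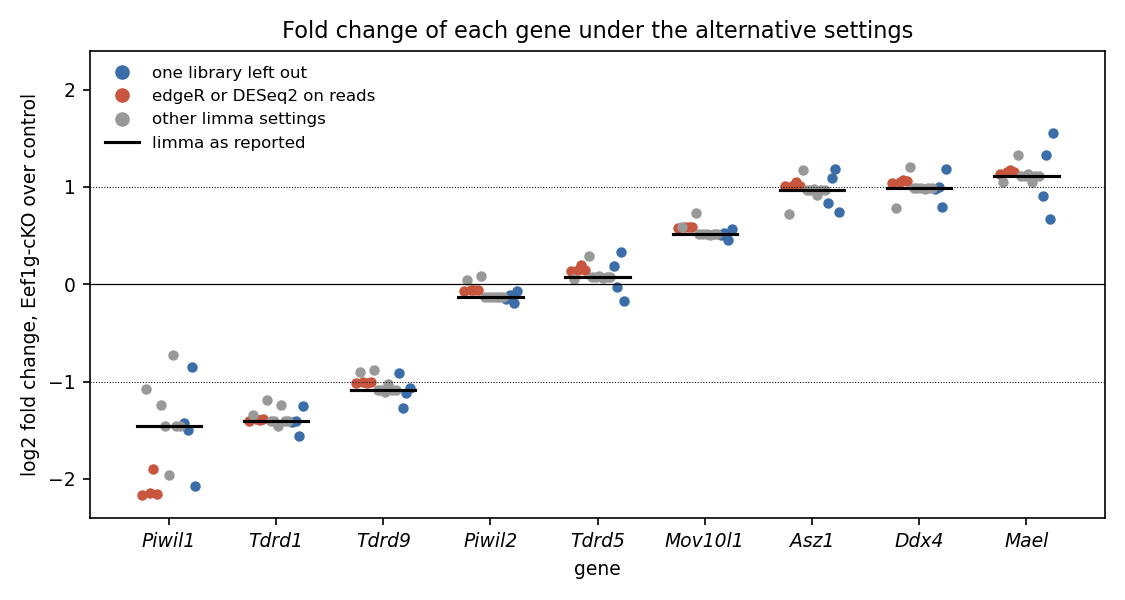
Log2 fold change of each tested gene as reported (black bar) and under the alternative settings (points), *Eef1g*-cKO over control. *Tdrd1* stays between −1.56 and −1.19 and *Tdrd9* between −1.27 and −0.88, while *Mael* ranges from 0.67 to 1.56 and *Piwil1* from −2.17 to −0.72.

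The median pattern of the 9 tested genes over the 4 libraries was almost level between genotypes. The 5 other genes closest to it, by Euclidean distance of log2(FPKM + 1) centred on the control mean among 2367 genes with at least 20 reads in every library, were *Slc25a3*, *Tti1*, *March7*, *Kidins220* and *Bag6*, at distances of 0.0351 to 0.0771.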

How the data were processed

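Ribo-seq libraries of 2 control and 2 *Eef1g*-cKO samples were analysed from one table. The FPKM values were computed by the authors per kilobase of gene and per 1000000 reads counted on genes. The deposited normalized counts are a signal, gene counts over each library's size factor. In every library 100% of them came out whole (tolerance 0.01) once divided by that library's smallest step, which returned the reads. The authors' own fold changes, errors and p-values in the table were not used. The paper's methods name adapter trimming, quality filtering, alignment and RiboMiner. The submitters' processing notes list cutadapt, Bowtie and STAR and the builds mm10 and hg38 without roles. The counter, its strand setting and its handling of reads shared by paralogs are not given in the sources used here.

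The main test was limma 3.58.1 (R 4.3.3) with a trended prior variance on log2(FPKM + 1), without a replicate block, Benjamini-Hochberg adjusted over 10475 genes. edgeR 4.0.16 (filterByExpr, TMM, quasi-likelihood) and DESeq2 1.42.0 on the recovered reads, other pseudocounts, filters and scalings, and leaving out each library were alternatives. The models were tested on simulated data. edgeR called 705 genes increased and 904 decreased. A gene with 0 reads may still have 3 at 95% confidence. Intervals of pooled reads are exact (Clopper-Pearson on the split of reads) and cover counting error only. All 10 genes matched RefSeq (GRCm38.p6) by symbol, and no other gene of the table overlaps them there. Named genes are the 10, 11 further pathway genes fixed by name, any other pathway gene that was called, and the 5 most similar patterns. The genes, lists and motifs were chosen with earlier results of these data known. The libraries of a genotype are described as biological replicates. Within a genotype they differed by more than sampling noise (chi-square per degree of freedom 11.8 in control and 1.81 in *Eef1g*-cKO). One promoter stretch is not reported here.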

Additional observations from a re-analysis of the deposited data

How the results depend on the processing

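Neither *Tdrd1* nor *Tdrd9* changed direction under any alternative run. *Piwil2*, which was not called, reversed to 0.048 with the GC trend removed and to 0.083 with median centring, and *Tdrd5* to −0.03 without *Eef1g*-cKO replicate 2 and to −0.17 without control replicate 2. The decrease of *Tdrd1* lost its call in 4 of 16 alternatives and that of *Tdrd9* in 9 of 16.

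DESeq2 and the runs without a filter were fitted to all 10 genes. Increased by adjusted p were 2 in DESeq2 and with median centring and 3 in edgeR, in edgeR without a filter and in edgeR with a replicate block. Decreased were 1 in edgeR, with the GC trend removed, with median centring and with no filter, and 0 with a pseudocount of 0.1 FPKM or a prior variance without a trend. Leaving out one library gave 0 to 1 increased and 0 to 2 decreased, and a median log2 fold change of the 9 tested from −0.066 (without control replicate 2) to 0.33 (without control replicate 1). Genes tested numbered 11598 in DESeq2 and without a filter, 9770 with the GC trend removed, 8056 in edgeR with its filter and 10475 in the other runs named here. Of all tested genes, 502 were increased in DESeq2, 559 with the GC trend removed, 689 in edgeR without a filter, 758 in edgeR with a replicate block, 705 in edgeR, 521 with median centring, 29 with a pseudocount of 0.1 and 0 without a trend. Decreased were 876, 988 and 904 in edgeR without a filter, with a replicate block and as planned, 47 with a pseudocount of 0.1, 822 with a replicate block in limma and 0 without a trend. Also decreased were 451 in DESeq2, 397 with the GC trend removed, 383 with median centring and 373 in limma with no filter. Leaving out one library gave 0 to 537 and 0 to 1432, 0 when either control library was out. Of the other pathway genes, 0 were increased and 0 decreased with a pseudocount of 0.1 or without a trend, 2 were decreased with no filter, and leaving out one library gave 0 to 1 increased and 0 to 7 decreased. The causes were not tested.

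Libraries with the same replicate number did not deviate together (correlation −0.0080 over 10475 genes), so the replicate block pairs numbers only. The depth of the *Eef1g*-cKO libraries limits what can be said of *Piwil1*, *Tdrd6*, *Piwil4* and *Henmt1*, with at most 2 reads in each of these libraries.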
